A study of Rattus norvegicus with 18 samples.

Results

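The solute carriers that move glutamate, GABA, glycine, monoamines, acetylcholine and amino acids were followed across 18 RNA-seq libraries of rat left hippocampus. The genes were taken by a rule on their names, set with earlier results of these data known. It covered every symbol of the Slc1a, Slc6a, Slc17a, Slc18a and Slc38a families, without the astrocytic glutamate carriers Slc1a2 and Slc1a3. The name rule took 44 of the 17455 symbols in the table, and 33 of them had at least 10 counts in at least 3 libraries. The other 11 were near the detection limit and are given below with their counts.

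The animals were adult male Sprague-Dawley rats from a pair of models of temporal lobe epilepsy. The 4 groups were KA 3 Class V (n = 3) and KA sham (n = 7) from the systemic kainic acid (KA) model, and KI 3 Class V (n = 4) and KI sham (n = 4) from the electrical kindling (KI) model. KA rats had electrodes implanted and then received stepwise doses of kainic acid, a glutamate receptor agonist, to the point of status epilepticus, a prolonged seizure. KI rats had electrodes in the hippocampus and were stimulated day after day until fully kindled, that is, until stimulation reliably ended in a full seizure. The labels do not explain the words 3 Class V, nor what the shams of each model received. Tissue was taken 24 hours after the last seizure, so the values of the 3 Class V groups describe RNA at 1 time point after it.

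After release, transmitters are cleared by sodium-coupled carriers of the plasma membrane and packed again into vesicles by proton-driven vesicular carriers. In the hippocampus, Slc17a7 (VGLUT1) fills the vesicles of most excitatory neurons, and Slc6a11 (GAT3) takes GABA into astrocytes. Carriers of the SLC38 family move glutamine between astrocytes and neurons, where it is the precursor of both glutamate and GABA. The RNA level of a carrier does not show how much transmitter it moves.

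Total counts were 37172455 to 49943021 per library in KA 3 Class V, 32150130 to 42619628 in KA sham, 36117956 to 41195373 in KI 3 Class V, and 30925368 to 38850420 in KI sham. Levels are CPM, counts scaled to the size of the library with edgeR's TMM factors, and they compare a gene between libraries, not genes with each other. The labelled tissue could be checked with 9 markers of pyramidal and granule neurons, all detected in every group, which summed to at least 1492 CPM in every library. Several libraries stood apart for reasons the groups do not give. KI sham 4 had 886 CPM of Ttr, a choroid plexus gene, against 11.5 to 39.2 CPM in the other KI shams, and KA sham 3 had 572 CPM. KI sham 1 had only 68.6 CPM of Slc1a2, against 258 to 378 CPM in the other KI shams. Ribosomal RNA-like counts took 16.3% of KI 3 Class V 1, 16.4% of KI sham 2 and 9.66% of KA sham 4, and 0.569% to 1.999% of the other libraries. Of the 33 carriers, 13 had their lowest level of all 18 libraries in KI sham 1 and 8 in KA sham 2, and 8 had their highest in KI sham 4. A score over 88 ribosomal protein genes, the mean deviation in log2 CPM from the average library, was -0.38 ± 0.14 in KI 3 Class V and 0.25 ± 0.44 in KI sham, and -0.03 ± 0.11 in KA 3 Class V and 0.09 ± 0.54 in KA sham (SD, n = 4, 4, 3 and 7). It was 0.69 in KI sham 1 and 0.97 in KA sham 2. Its part in the results was not tested beyond the fit that includes it.

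**Figure D1:**
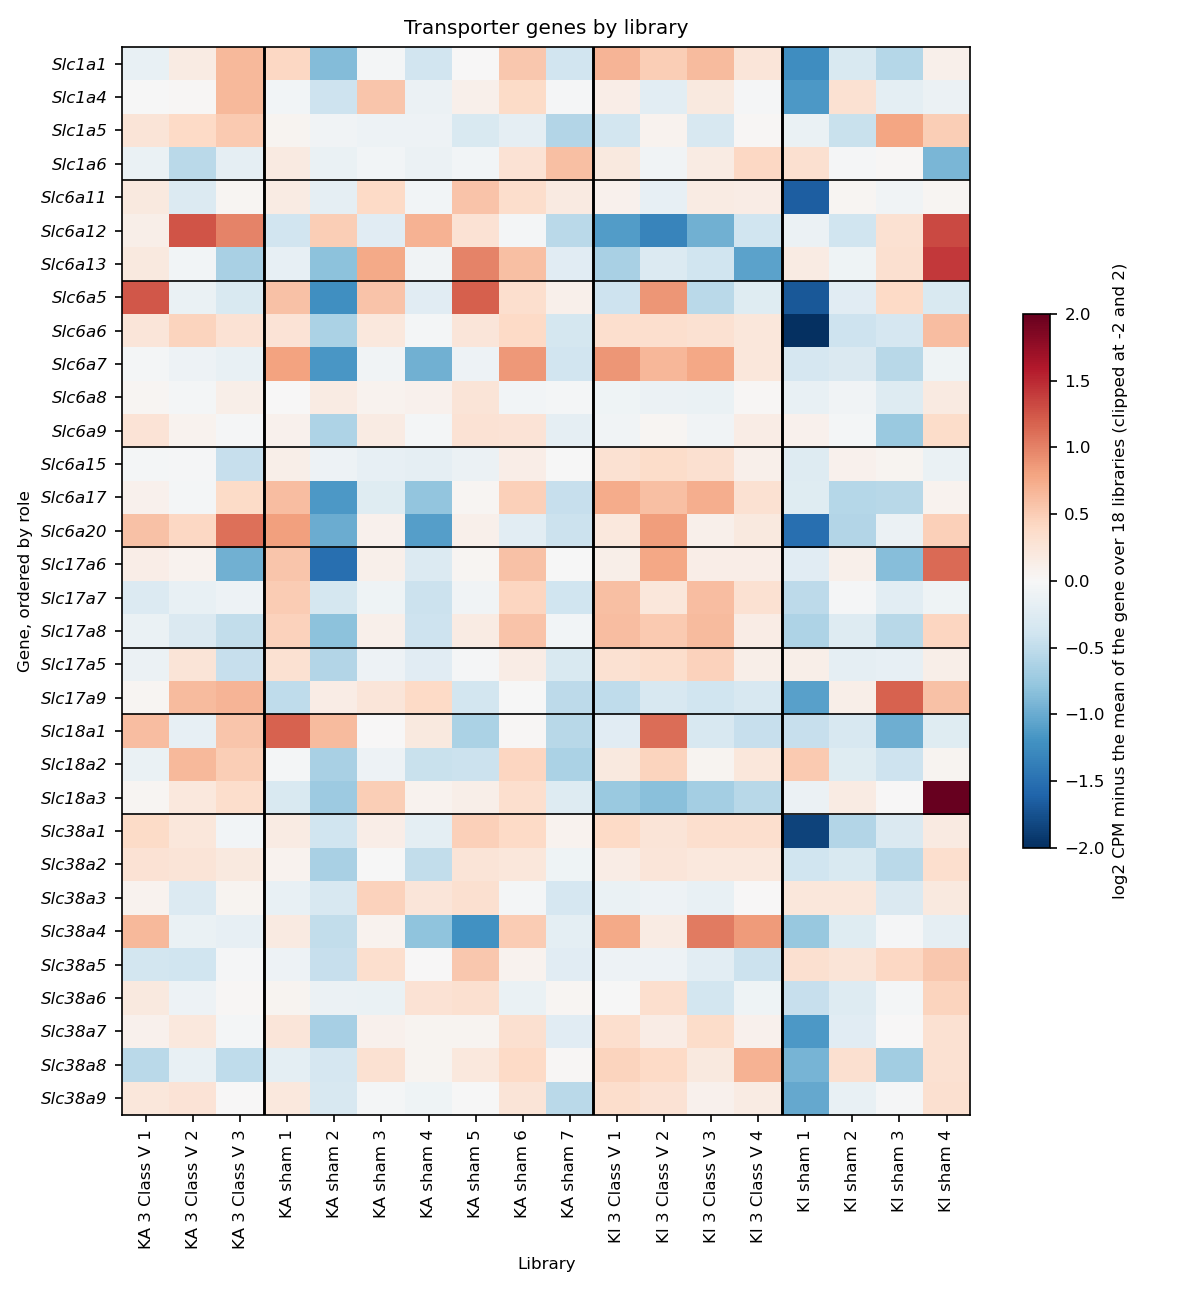
Level of 32 of the 33 carriers (rows, ordered by role) in each of the 18 libraries (columns), as the deviation in log2 CPM from the average of that gene, red above and blue below it. Over the 33, KI sham 1 held the lowest level of 13 carriers and KA sham 2 the lowest of 8.

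In the kindling model, 4 of the 33 carriers passed the test: Slc1a1 and Slc17a7 were higher in KI 3 Class V than in KI sham, and Slc6a12 and Slc18a3 were lower (edgeR quasi-likelihood test with Benjamini-Hochberg adjustment over 13383 genes, threshold 0.05). This was 12.1% of the carriers, while 9.91% of all genes tested were called in the same comparison, so the carriers were called at about the background share. In each direction, 2 carriers were called, against 4.71% of all genes higher and 5.19% lower. The 14 carriers with an unadjusted p under 0.05 made up 42.4%, against 35.4% of all genes. Of these, 9 had a higher mean in KI 3 Class V (27.3%, against 17.2% of all genes) and 5 a lower one (15.2%, against 18.2%). The median change of the 33 carriers was 0.33 on the log2 scale, against -0.04 for all genes, and 25 of them had a positive change (75.8%, against 46.8% of all genes). In 7 carriers every KI 3 Class V library lay above every KI sham library (12.1% of all genes did), and in 4 every one lay below (8.06% of all genes), together 33.3% against 20.2%.

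In the same comparison the 9 markers of pyramidal and granule neurons had a median change of 0.42 (8 of 9 positive, 0 called by edgeR, 3 at an unadjusted p under 0.05, 2 called by DESeq2 and 6 by limma-voom) and summed to 2624 to 3499 CPM in KI 3 Class V, against 1492 to 3005 CPM in KI sham. The 10 markers of interneurons also had a median of 0.42 (7 of 10 positive, Gad2 called higher) and summed to 1309 to 1469 CPM in KI 3 Class V, against 678 to 1446 CPM in KI sham. Of the 8 markers of oligodendrocytes, 7 had a negative change (median -0.60), 2 were called lower, Cnp and Cldn11, and the sums were 9893 to 13907 CPM in KI 3 Class V, against 15758 to 21142 CPM in KI sham. The part of these cells in the carriers' changes was not tested. Of all genes in this comparison, 35.4% had an unadjusted p under 0.05, DESeq2 called 22.1% and limma-voom 54.8%.

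Adding the ribosomal protein score to the fit as a covariate brought the median change of the carriers in the kindling model to 0.04. That fit called 2 carriers, Slc6a13 and Slc18a3, both lower, and 0.852% of all genes. With upper quartile scaling in place of TMM the calls were 0 higher and 3 lower (9.83% of all genes called). Without the 3 libraries with many ribosomal RNA-like counts, all 4 calls were lost, and 0.112% of all genes were called. With each model fitted alone, 3 were called (6.13% of all genes), all higher: Slc17a7, Slc6a7 and Slc6a17. Without KI shams 3 and 4, 7 were called, all higher, of which Slc1a1 alone was among the 4. In that fit 28.1% of all genes were called. The count rested on single libraries, and the share of all genes called, 9.91% with all 18 libraries, moved too. The count was 0 without KI 3 Class V 1, 2 or 3, with 0.0673% of all genes called in each of these fits. It was 1 without KI 3 Class V 4, KI sham 3 or KA sham 3 (at most 6.27% of all genes). It was 2 without KI sham 2, KA sham 7, KA 3 Class V 1 or KA 3 Class V 2 (3.39% to 7.63%). It was 8, 9 and 10 without KA sham 6, KA sham 2 and KI sham 4 (12.3%, 18.3% and 32.2%). The losses were therefore not confined to the carriers.

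In the kainic acid model, 0 of the 33 carriers passed the test, where 0.172% of all genes were called. With an unadjusted p under 0.05 there were 4, Slc1a5, Slc18a2, Slc6a20 and Slc6a12, all with a higher mean in KA 3 Class V than in KA sham, or 12.1% against 9.91% of all genes (6.32% with a higher mean). DESeq2 called 0 carriers (1.90% of all genes) and limma-voom called 1 (5.39%), Slc38a5, which had a lower mean in KA 3 Class V. The median change of the carriers was 0.08 on the log2 scale, against -0.01 for all genes, and 19 of the 33 were positive (57.6%, against 48.0%). Markers of pyramidal and granule neurons summed to 2357 to 2582 CPM in KA 3 Class V, against 2941 to 4274 CPM in KA sham. The largest of the 9, Camk2a, had 1512 to 1754 CPM in KA 3 Class V, against 1829 to 3603 CPM in KA sham. The median change of the 9 was -0.12 (2 positive and 7 negative). EdgeR called 0 of them, with 1 at an unadjusted p under 0.05. The 10 markers of interneurons had a median change of -0.13 in KA (4 positive and 6 negative). All 8 markers of oligodendrocytes had a negative change (median -0.50, 0 called by edgeR, 5 at an unadjusted p under 0.05). The part of these cell types in the changes of the carriers was not tested. The changes of the carriers ran from -0.51 for Slc38a8, a glutamine carrier described in mouse neurons, to 0.87 for Slc6a12.

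**Figure D2:**
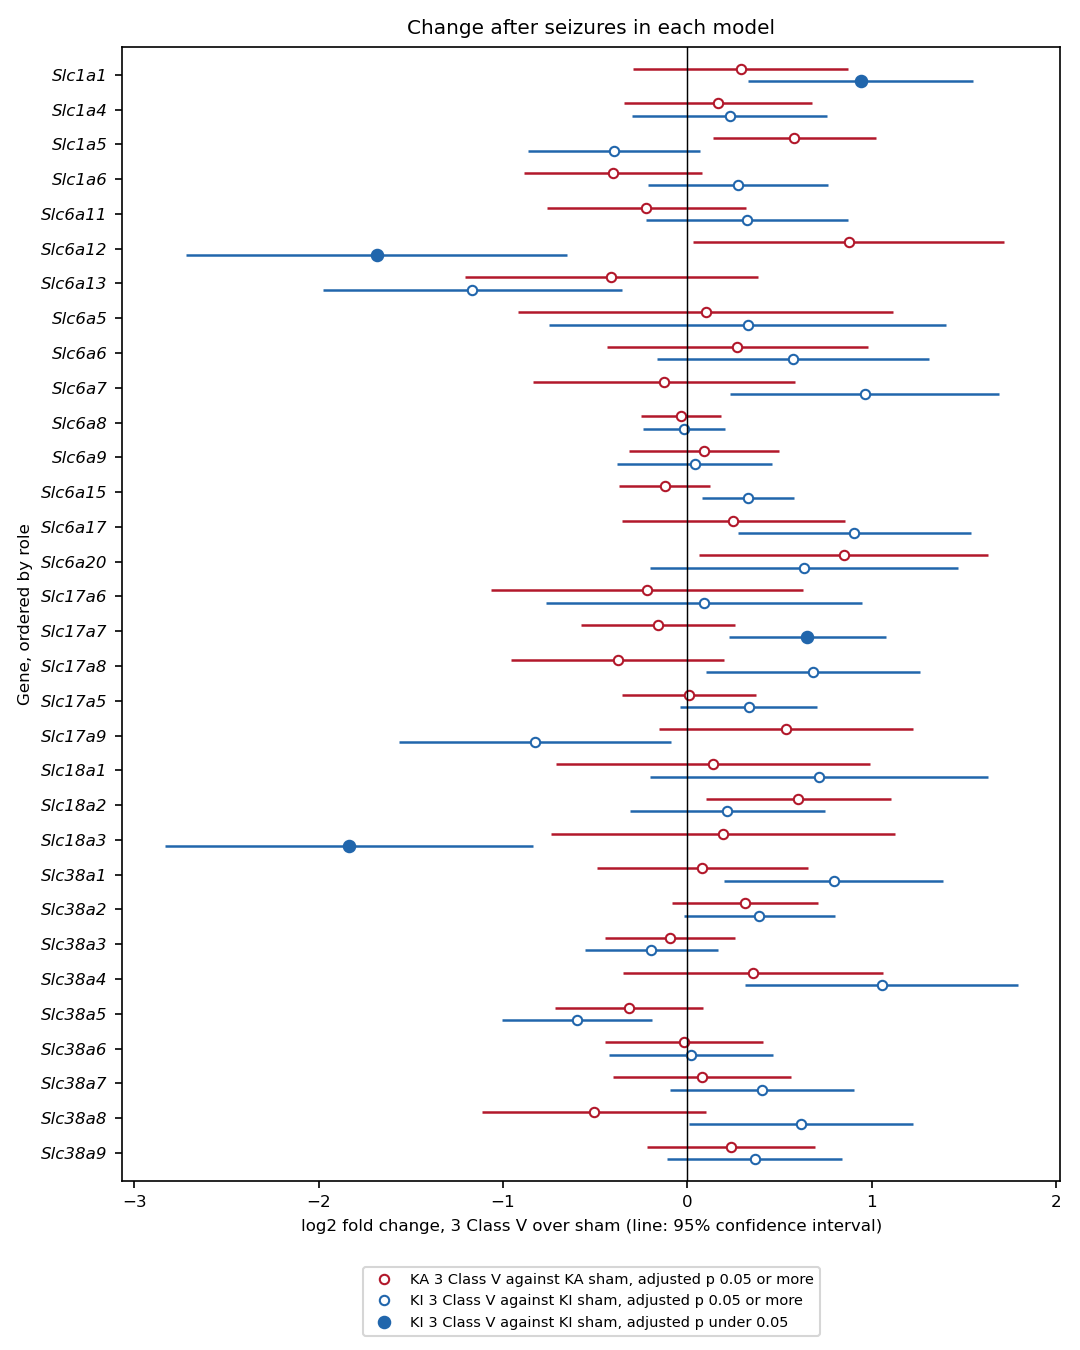
Change of 32 of the 33 carriers in log2 units, 3 Class V over sham, in the KA model (red) and the KI model (blue), with lines for the 95% confidence interval and filled points for an adjusted p under 0.05. The 4 filled points are Slc1a1 (0.94), Slc17a7 (0.65), Slc6a12 (-1.69) and Slc18a3 (-1.83), all in the KI model.

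Of the SLC1 carriers, Slc1a1 (EAAC1), the glutamate and cysteine carrier of neurons, had 101, 88.8, 97.3 and 74.6 CPM in KI 3 Class V, against 26.8, 51.2, 42.6 and 67.6 CPM in KI sham. Every KI 3 Class V library lay above every KI sham, with KI sham 1 the lowest of all 18 libraries. Slc1a1 was higher in KI 3 Class V by 0.94 ± 0.29 (log2, SE; 1.92-fold, adjusted p = 0.0488 by edgeR). The call was lost, with an adjusted p of 0.0505 to 0.126, when any 1 of 13 libraries was left out: KI 3 Class V 1, 2, 3 or 4, KI sham 1, 2 or 3, KA 3 Class V 1 or 2, or KA sham 3, 4, 5 or 7. The adjusted p of Slc1a1 was 0.182 without the 3 libraries with many ribosomal RNA-like counts and 0.0523 with the model fitted alone. With the ribosomal protein score in the fit the change of Slc1a1 was 0.41 (adjusted p = 0.208). After kainic acid, Slc1a1 had 57.0, 70.9 and 98.8 CPM in KA 3 Class V, against 34.5 to 91.9 CPM with a median of 61.7 in KA sham, and the groups overlapped. The change there was 0.29 ± 0.28 (adjusted p = 0.770).

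Slc1a5 (ASCT2), which exchanges glutamine and other neutral amino acids, had the smallest p of the carriers in the KA model. It had 6.35, 7.01 and 7.66 CPM in KA 3 Class V, against 3.50 to 5.499 CPM with a median of 4.92 in KA sham. All 3 KA 3 Class V libraries lay above all 7 shams, and Slc1a5 was the only carrier of the 33 separated that way in this model (3.03%, against 2.94% of all genes). Its change of 0.58 ± 0.21 did not pass the adjustment over all genes (adjusted p = 0.292 by edgeR). In the kindling model Slc1a5 had 4.09, 5.54, 4.25 and 5.37 CPM in KI 3 Class V, against 4.81, 3.89, 9.21 and 7.44 CPM in KI sham, a change of -0.40 ± 0.22 (adjusted p = 0.196). The other members tested, Slc1a4 (ASCT1), a serine and alanine exchanger, and Slc1a6 (EAAT4), known from cerebellar Purkinje cells, had changes of 0.16 and -0.40 in the KA model and 0.23 and 0.27 in the KI model, none of them called. Slc1a7 (EAAT5), known from the retina, had 98 counts over all 18 libraries and was not tested.

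**Figure D3:**
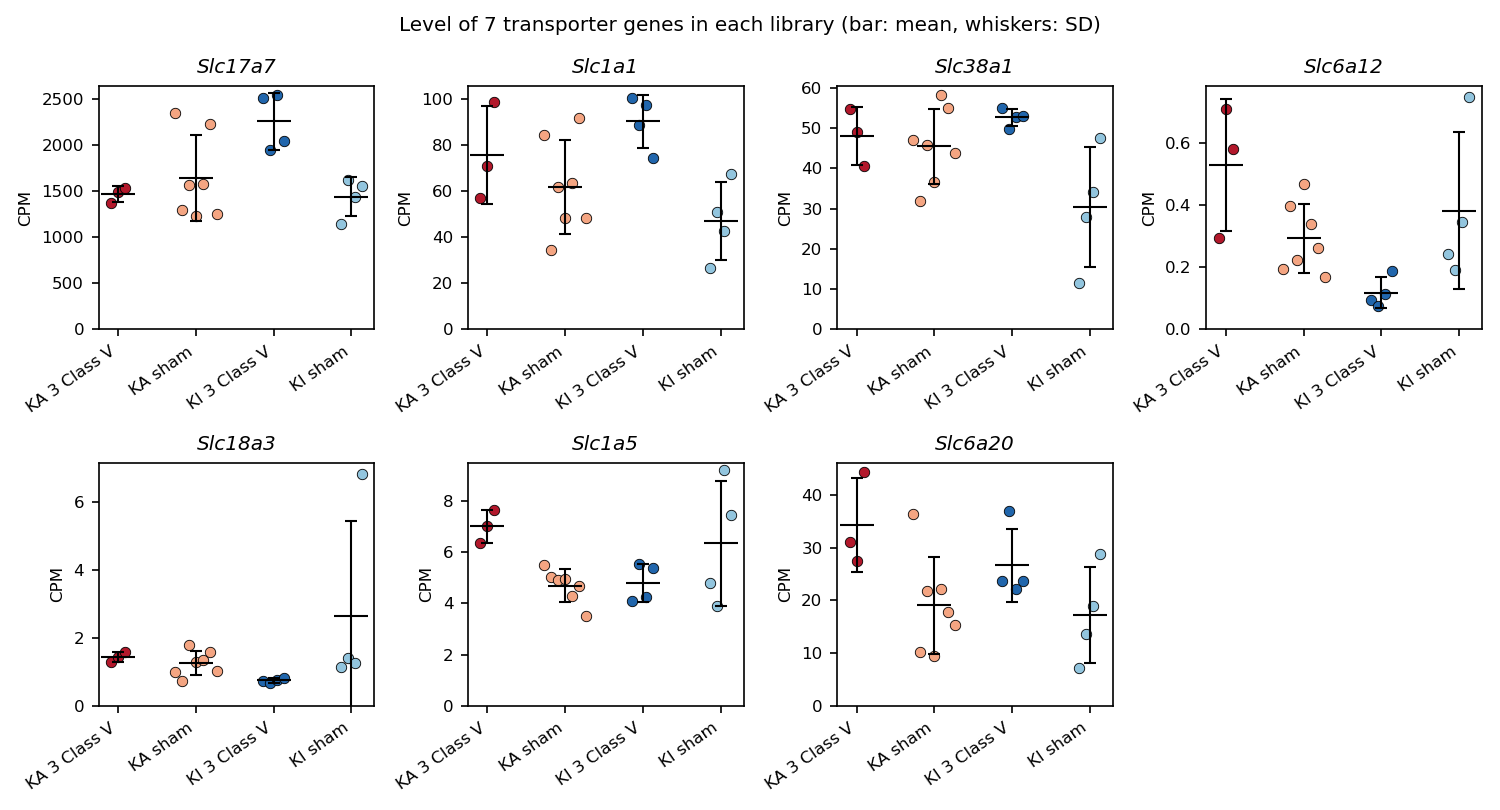
Level of 7 carriers in CPM in each library (points) by group, with the mean (bar) and SD (whiskers). Slc1a1 and Slc17a7 lay higher in all 4 KI 3 Class V libraries than in any KI sham, while KI sham 4 alone set the wide spread of Slc18a3 (its lower whisker runs below 0 and is cut at the axis) at 6.81 CPM.

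Of the GABA carriers of the plasma membrane, 1 was called by edgeR, Slc6a12 in the kindling model, where DESeq2 and limma-voom called 2 each. Over all genes there, edgeR called 9.91%, DESeq2 22.1% and limma-voom 54.8%. Slc6a11, the astrocytic GABA carrier, had 59.4, 50.2, 62.7 and 61.8 CPM in KI 3 Class V, against 17.9, 57.6, 53.6 and 57.7 CPM in KI sham. Its difference in means of 0.33 ± 0.26 (adjusted p = 0.366) came with KI sham 1 far below the other 3 shams. Slc6a11 in the KA model had 63.8, 46.4 and 57.8 CPM in KA 3 Class V, against 49.3 to 82.8 CPM with a median of 63.4 in KA sham (change -0.22 ± 0.26, adjusted p = 0.819).

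Slc6a12 (BGT1), which carries betaine as well as GABA and is known for cell volume control in the kidney, had the smallest p of the 33 carriers for a difference between the models. It was near the detection limit: 12, 38 and 23 reads in KA 3 Class V, 6 to 14 in KA sham, 3, 3, 4 and 8 in KI 3 Class V, and 7, 6, 14 and 32 in KI sham. Of the KI libraries, only KI shams 3 and 4 reached 10 reads, so Slc6a12 passed the count filter through the KA libraries. In CPM, Slc6a12 had 0.0945, 0.0751, 0.113 and 0.189 in KI 3 Class V, against 0.242, 0.191, 0.344 and 0.749 in KI sham. All 4 KI 3 Class V libraries lay below all 4 shams, the nearest pair at 0.189 and 0.191 CPM, and the change was -1.69 ± 0.49 (3.22-fold lower, adjusted p = 0.0426 by edgeR). The call was lost, with an adjusted p of 0.0513 to 0.117, without KI 3 Class V 1, 2 or 3, KI sham 3 or 4, or KA sham 3. Without KI sham 4 the change of Slc6a12 was -1.15 (adjusted p = 0.0701), and without KI shams 3 and 4 it was -0.86 (adjusted p = 0.249). The adjusted p of Slc6a12 was 0.119 without the 3 libraries with many ribosomal RNA-like counts and 0.1003 with the ribosomal protein score in the fit.

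Slc6a12 in the KA model had 0.295, 0.710 and 0.581 CPM in KA 3 Class V, against 0.167 to 0.467 CPM with a median of 0.260 in KA sham, and the groups overlapped. Its change of 0.87 ± 0.40 was not called (adjusted p = 0.475). The difference between the changes, KA minus KI, was 2.56 ± 0.63 for Slc6a12 and passed the test (adjusted p = 0.0336 by edgeR), the only carrier of 33 to do so (3.03%, against 3.79% of all genes, 3.14% with a larger value in KA). With an unadjusted p under 0.05 there were 9 carriers (27.3%, against 20.5%). Set directly against each other, the 3 KA 3 Class V libraries all lay above the 4 KI 3 Class V libraries, by 2.13 ± 0.50 on the log2 scale (adjusted p = 0.0333). This too was 1 carrier of 33, where 2.80% of all genes were called and 2.45% were called higher in KA 3 Class V. At an unadjusted p under 0.05 there were 7 (21.2%, against 17.8%). The 3 KA 3 Class V libraries were all above the 4 KI 3 Class V libraries in 4 carriers (16.4% of all genes) and all below in 6 (17.9%), together 30.3% against 34.3%. The direct comparison uses the same KI 3 Class V libraries as the change in the kindling model and is no separate evidence. The call on the difference of changes was lost, with adjusted p of 0.0502 to 0.0929, without any 1 of 10 libraries: KI 3 Class V 1, 2 and 3, KI sham 3 and 4, KA 3 Class V 2 and 3, and KA sham 3, 6 and 7. Without KI shams 3 and 4 the difference of the changes of Slc6a12 was 1.73 (adjusted p = 0.105), and the carrier called there was Slc38a1, lower. Without the 2 libraries high in Ttr it was 1.96 (adjusted p = 0.0795). The call between the 3 Class V groups was lost, with adjusted p of 0.0532 to 0.138, without KA 3 Class V 2 or 3 or any 1 of the 4 KI 3 Class V libraries.

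Slc6a13 (GAT2), a GABA and taurine carrier known from the meninges and the liver in mice, had 2.80, 3.63, 3.35 and 2.08 CPM in KI 3 Class V, against 4.95, 4.14, 5.55 and 11.9 CPM in KI sham. It is named here after its values were seen. Its change was -1.17 ± 0.39 (adjusted p = 0.0578 by edgeR), and in the KA model -0.41 ± 0.38 (adjusted p = 0.758). The 10 markers of meninges and perivascular fibroblasts stand for the cells in which Slc6a13 is known. They summed to 135 to 242 CPM (median 181) in KI 3 Class V. In KI sham they summed to 170 to 735 CPM (median 198), and the 735 CPM was KI sham 4 alone. Of the 10 markers, 2 were called lower, Igfbp2 and Slc22a6, where 5.19% of all genes were. In bulk tissue, fewer cells of a type and less RNA per cell cannot be told apart, and the part of these cells in the result was not tested. On the rat assembly GRCr8, Slc6a12 and Slc6a13 are next to each other.

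The carriers of glycine, proline, taurine and creatine gave 0 calls of 5 in either model by edgeR. An unadjusted p under 0.05 was found for 1 of the 5 in the kindling model (35.4% of all genes). DESeq2 called 1 there (22.1% of all genes) and limma-voom 2 (54.8%). In the KA model all 3 counts were 0. Slc6a9 (GlyT1), which clears glycine near NMDA receptors, had 112, 97.6 and 90.8 CPM in KA 3 Class V, against 60.7 to 113 CPM with a median of 98.1 in KA sham. In the kindling model it had 88.2, 94.9, 87.9 and 102 CPM in KI 3 Class V, against 97.9, 90.6, 55.6 and 119 CPM in KI sham, and both pairs of groups overlapped. The changes of Slc6a9 were 0.09 ± 0.19 (95% confidence interval -0.32 to 0.50) in KA and 0.04 ± 0.20 (-0.38 to 0.46) in KI. Slc6a8, the creatine carrier, had the narrowest intervals of the 33, with -0.03 (-0.25 to 0.18) in KA and -0.02 (-0.24 to 0.20) in KI. Slc6a7, the proline carrier of excitatory nerve endings, had 70.7, 61.1, 65.6 and 45.0 CPM in KI 3 Class V, against 30.6, 31.4, 26.1 and 36.3 CPM in KI sham, with no overlap. Its change of 0.96 ± 0.35 did not pass (adjusted p = 0.0700), and that of -0.13 ± 0.34 in KA did not either (adjusted p = 0.938); Slc6a7 is named after its values were seen. Slc6a5 (GlyT2) is the neuronal glycine carrier known from the spinal cord and brainstem, and Slc6a6 is the taurine carrier. They had changes of 0.10 and 0.27 in KA and 0.33 and 0.57 in KI, none called by edgeR. In KI limma-voom called Slc6a6.

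Among the neutral amino acid carriers of SLC6, 3 of the 6 symbols in the table passed the count filter and 0 were called by edgeR. At an unadjusted p under 0.05 there were 2 in the kindling model (35.4% of all genes) and 1 in the KA model (9.91%). In the kindling model DESeq2 called 2 (22.1% of all genes) and limma-voom 3 (54.8%). In the KA model both called 0. Slc6a20, a carrier of proline and glycine, had 31.1, 27.5 and 44.3 CPM in KA 3 Class V, against 9.54 to 36.4 CPM with a median of 17.7 in KA sham. A single sham, KA sham 1 at 36.4 CPM, overlapped the KA 3 Class V range, and the change was 0.85 ± 0.37 (adjusted p = 0.439 by edgeR). In the kindling model Slc6a20 had 23.8, 37.0, 22.2 and 23.7 CPM in KI 3 Class V, against 7.196, 13.7, 18.97 and 28.8 CPM in KI sham (change 0.63 ± 0.40, adjusted p = 0.250). Slc6a17 (NTT4), a neutral amino acid carrier of synaptic vesicles, had 643, 584, 635 and 478 CPM in KI 3 Class V, against 326, 259, 262 and 403 CPM in KI sham. The groups did not overlap, but the change of 0.91 ± 0.30 missed the threshold (adjusted p = 0.0578). Slc6a15, a neuronal carrier of branched-chain amino acids and proline, also did not overlap, with 91.9 to 110 CPM in KI 3 Class V against 72.0 to 91.6 CPM in KI sham, and changed by 0.33 ± 0.12 (adjusted p = 0.0717). Slc6a17 and Slc6a15 were chosen after their values were seen. Slc6a14, Slc6a18 and Slc6a19 had 0, 1 and 4 counts over all libraries.

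Of the 3 vesicular glutamate carriers, 1 was called by edgeR and by DESeq2, Slc17a7 in the kindling model, and limma-voom called 2. Over all genes there, edgeR called 9.91%, DESeq2 22.1% and limma-voom 54.8%. Slc17a7 (VGLUT1) had 2511, 1942, 2538 and 2040 CPM in KI 3 Class V, against 1143, 1622, 1434 and 1556 CPM in KI sham. All 4 KI 3 Class V libraries lay above all 4 shams, and the change was 0.65 ± 0.20 (1.57-fold, adjusted p = 0.0496 by edgeR). The call was lost, with an adjusted p of 0.0520 to 0.131, when any 1 of 13 libraries was left out: KI 3 Class V 1, 2, 3 or 4, KI sham 1, 2 or 3, KA 3 Class V 1, 2 or 3, or KA sham 3, 5 or 7. The adjusted p of Slc17a7 was 0.161 without the 3 libraries with many ribosomal RNA-like counts and 0.0565 without KI shams 3 and 4. With the ribosomal protein score in the fit the change of Slc17a7 was 0.30 (adjusted p = 0.278). Slc17a7 in the KA model had 1374, 1493 and 1538 CPM in KA 3 Class V, against 1224 to 2351 CPM with a median of 1564 in KA sham. The change there was -0.16 ± 0.20 (adjusted p = 0.839). The difference between the changes of Slc17a7, KA minus KI, was -0.81 ± 0.28 and did not pass (adjusted p = 0.122).

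Slc17a6 (VGLUT2), the vesicular glutamate carrier of subcortical neurons such as those of the thalamus, had 15.5, 24.5, 15.7 and 15.7 CPM in KI 3 Class V, against 12.2, 15.3, 7.91 and 31.5 CPM in KI sham. The lone high values were those of KI 3 Class V 2 and KI sham 4, and the change was 0.09 ± 0.41 (adjusted p = 0.883). In the KA model it had 15.7, 15.1 and 7.33 CPM in KA 3 Class V, against 4.99 to 21.6 CPM with a median of 14.7 in KA sham (change -0.22 ± 0.40, adjusted p = 0.901). Slc17a8 (VGLUT3), known from subsets of interneurons and serotonergic fibres, had changes of -0.38 in KA and 0.68 in KI, neither called by edgeR; in KI limma-voom called it, as did edgeR without KI sham 4. Of the other SLC17 carriers, Slc17a5, the sialic acid carrier of lysosomes, and Slc17a9, a vesicular nucleotide carrier, had changes of 0.01 and 0.54 in KA and 0.33 and -0.83 in KI, not called by edgeR or DESeq2; limma-voom called both in KI. Slc17a1, Slc17a2, Slc17a3 and Slc17a4, organic anion and phosphate carriers known from kidney, liver or gut, had 3, 25, 8 and 73 counts over all libraries.

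Of the vesicular carriers of monoamines and acetylcholine, Slc18a3 (VAChT), which fills cholinergic vesicles, was called lower in the kindling model by edgeR, DESeq2 and limma-voom. It had 0.724, 0.676, 0.760 and 0.827 CPM in KI 3 Class V (23 to 35 reads), against 1.14, 1.403, 1.25 and 6.81 CPM in KI sham (33 to 291 reads). All 4 KI 3 Class V libraries lay below all 4 shams, and KI sham 4 lay far above the other 3. The change was -1.83 ± 0.47 (3.57-fold lower, adjusted p = 0.0334 by edgeR). Without KI sham 4 the change of Slc18a3 was -0.79, smaller and still called (adjusted p = 0.0299). The call was lost, with an adjusted p of 0.0515 to 0.106, without any 1 of the 4 KI 3 Class V libraries. It was also lost for Slc18a3 with the model fitted alone (adjusted p = 0.0869), without KI shams 3 and 4 (adjusted p = 0.0568) and without the 3 libraries with many ribosomal RNA-like counts (adjusted p = 0.108). Slc18a3 in the KA model had 1.28, 1.44 and 1.59 CPM in KA 3 Class V, against 0.734 to 1.77 CPM with a median of 1.30 in KA sham. The change there was 0.19 ± 0.44 (adjusted p = 0.931), and the difference between the changes, KA minus KI, was 2.03 ± 0.64 (adjusted p = 0.0879).

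KI sham 4 was high in other genes with Slc18a3. Chat, which makes acetylcholine and within which Slc18a3 lies in the genome, had 6.62 CPM there and 0.104 to 0.255 CPM in the other 3 KI shams. Reads from the parts that Chat and Slc18a3 share cannot be told apart. Slc5a7, which takes up choline in cholinergic endings, had 13.6 CPM in KI sham 4 and 1.94 to 2.90 CPM in the other KI shams. Tcf7l2, a marker of thalamus, had 29.4 CPM in KI sham 4 and 10.1 to 12.6 CPM in the other KI shams. Over the lists, 7 markers of monoamine and cholinergic neurons summed to 12.7 to 13.5 CPM in KI 3 Class V, against 15.5 to 34.2 CPM in KI sham, with Fev at 0 in both. The 8 markers of thalamus and hypothalamus summed to 60.0 to 65.0 CPM in KI 3 Class V, against 45.7 to 116 CPM in KI sham, and the 8 of choroid plexus to 16.7 to 38.1 CPM in KI 3 Class V, against 21.6 to 1003 CPM in KI sham. The part of such tissue in the levels of Slc18a3 was not tested beyond leaving out KI sham 4.

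**Figure D4:**
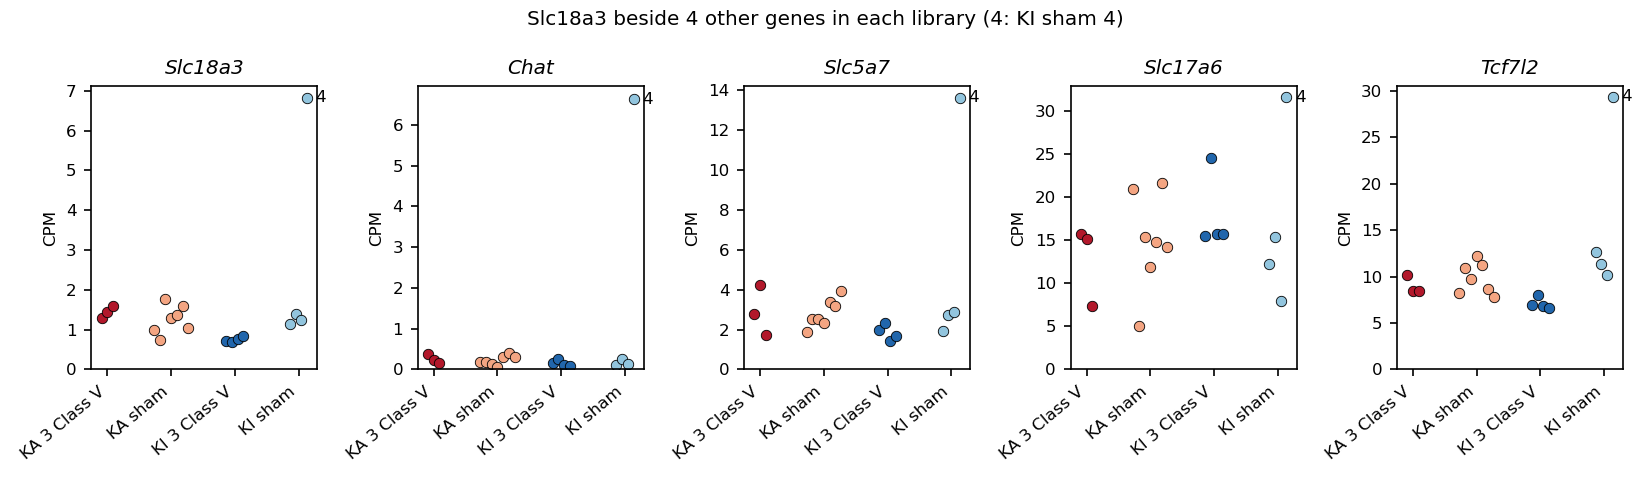
Level in CPM of Slc18a3, its neighbours in cholinergic transmission Chat and Slc5a7, Slc17a6 and the thalamic marker Tcf7l2 in each library by group, with KI sham 4 marked. KI sham 4 was the highest of all 18 libraries in each of the 5 genes, at 6.81, 6.62, 13.6, 31.5 and 29.4 CPM.

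Slc18a2 (VMAT2), which fills vesicles with serotonin, noradrenaline, dopamine and histamine, had 4.75, 8.22 and 7.35 CPM in KA 3 Class V, against 3.30 to 6.999 CPM with a median of 3.86 in KA sham. KA 3 Class V 1 lay within the range of the shams, and the change of 0.60 ± 0.24 was not called (adjusted p = 0.366 by edgeR). In the kindling model it had 5.98, 7.09, 5.44 and 6.08 CPM in KI 3 Class V, against 7.51, 4.40, 3.88 and 5.41 CPM in KI sham (change 0.22 ± 0.25, adjusted p = 0.538). Slc18a1 (VMAT1), known from neuroendocrine cells, had changes of 0.14 in KA and 0.71 in KI, neither called. The plasma membrane carriers of noradrenaline, dopamine and serotonin, Slc6a2, Slc6a3 and Slc6a4, are made mainly in cell bodies outside the hippocampus, and had 5, 49 and 75 counts over all 18 libraries.

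All 9 SLC38 symbols in the table passed the count filter, and 0 were called in either model by edgeR. Of the 9, 4 in the kindling model had an unadjusted p under 0.05 (35.4% of all genes). There DESeq2 called 3 (22.1% of all genes) and limma-voom 5 (54.8%). In the KA model these counts were 0, 0 and 1 (9.91%, 1.90% and 5.39% of all genes). Slc38a1 (SNAT1), which brings glutamine into neurons, had 55.1, 49.8, 52.8 and 53.0 CPM in KI 3 Class V, against 11.6, 28.0, 34.1 and 47.6 CPM in KI sham. The groups did not overlap, with KI sham 1 the lowest of all libraries, and the change of 0.79 ± 0.28 missed the threshold (adjusted p = 0.0671 by edgeR). In the KA model it had 54.7, 49.1 and 40.5 CPM in KA 3 Class V, against 31.9 to 58.1 CPM with a median of 45.8 in KA sham (change 0.08 ± 0.27, adjusted p = 0.956). Slc38a2 (SNAT2), known to rise in cells short of amino acids, had 86.9, 91.9, 90.6 and 90.6 CPM in KI 3 Class V, against 59.4, 63.2, 53.5 and 98.4 CPM in KI sham. The 4 KI 3 Class V libraries lay close together, 3 shams lay below them and KI sham 4 above (change 0.39 ± 0.20, adjusted p = 0.158). Slc38a2 in the KA model had 95.2, 93.5 and 89.4 CPM in KA 3 Class V, against 49.5 to 93.4 CPM with a median of 77.6 in KA sham (change 0.31 ± 0.19, adjusted p = 0.620).

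Slc38a3 (SNAT3), through which astrocytes release glutamine, had 74.4, 75.8, 73.0 and 81.2 CPM in KI 3 Class V, against 95.04, 94.6, 66.2 and 92.6 CPM in KI sham. Only KI sham 3 lay below the KI 3 Class V range, and the change was -0.19 ± 0.17 (adjusted p = 0.410 by edgeR). In the KA model it had 85.6, 67.1 and 84.1 CPM in KA 3 Class V, against 64.5 to 112 CPM with a median of 79.1 in KA sham (change -0.10 ± 0.17, adjusted p = 0.898). A pair of SLC38 carriers did not overlap in the kindling model and missed the threshold, both chosen after their values were seen. Slc38a4, an amino acid carrier known from the liver, had 0.902 to 1.69 CPM in KI 3 Class V, against 0.450 to 0.786 CPM in KI sham (change 1.05 ± 0.35, adjusted p = 0.0584). Slc38a5 (SNAT5), a glutamine carrier of glia and blood vessels, had 2.77 to 3.46 CPM in KI 3 Class V, against 4.46 to 5.43 CPM in KI sham (change -0.60 ± 0.19, adjusted p = 0.0540). The remaining members, Slc38a6, Slc38a7, Slc38a8 and Slc38a9, had changes between -0.51 and 0.23 in KA and between 0.02 and 0.62 in KI. Slc38a7 exports glutamine from lysosomes, and Slc38a9 senses lysosomal arginine for the growth kinase mTORC1.

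**Figure D5:**
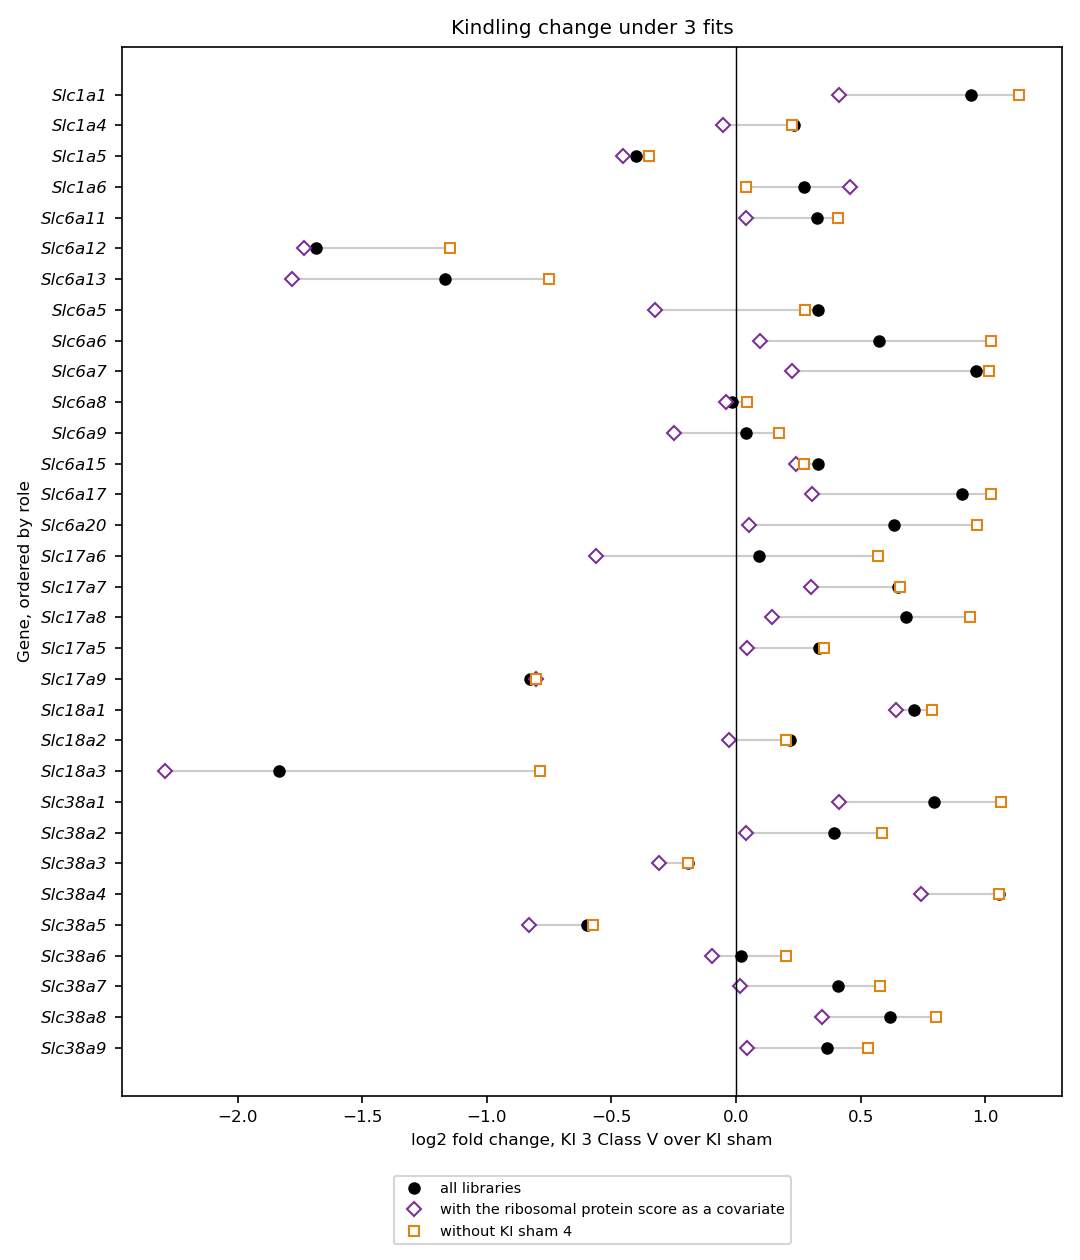
Change of 32 of the 33 carriers in log2 units, KI 3 Class V over KI sham, from the fit of all 18 libraries (black), with the score over ribosomal protein genes as a covariate (purple) and without KI sham 4 (orange). Slc18a3 moved from -1.83 to -0.79 without KI sham 4, and the changes of Slc1a1 and Slc17a7 were 0.41 and 0.30 with the covariate.

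The 2 sham groups, set against each other, gave 0 called carriers, where 0.00747% of all genes were called, and 4 with an unadjusted p under 0.05 (12.1%, against 8.65% of all genes). DESeq2 called 0 (0.0747% of all genes) and limma-voom 1 (3.00%), Slc38a1. Among the 4 were Slc38a1, with a higher mean in KA sham than in KI sham (0.58 on the log2 scale), and Slc18a3 and Slc1a5, with a lower one (-1.09 and -0.44). The 2 in each direction compare with 4.05% of all genes higher and 4.60% lower. In 0 of the 33 carriers did the sham groups separate without overlap (0.650% of all genes did). The model, its surgery and its handling cannot be told apart in this comparison. A test of any difference among the 4 groups called 0 carriers (1.62% of all genes). At an unadjusted p under 0.05 there were 10 (30.3%, against 25.4%). In this test DESeq2 called 5 (14.8% of all genes) and limma-voom 21 (57.1%). The smallest adjusted p by edgeR was 0.0788, for Slc6a12.

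Among genes that act with the carriers, few were called. Of 13 genes of glutamate, glutamine and GABA metabolism, 2 were called by edgeR in the kindling model, both higher, among them Gad2, which makes GABA. In the same comparison 4.71% of all genes were called higher. At the level of single tests, 6 of the 13 had an unadjusted p under 0.05 (35.4% of all genes). DESeq2 called 3 (22.1% of all genes) and limma-voom 10 (54.8%). Gad2 had 111, 100.4, 115 and 97.2 CPM in KI 3 Class V, against 8.75, 33.3, 40.6 and 58.6 CPM in KI sham (change 1.58 ± 0.42, adjusted p = 0.0359), with KI sham 1 far below the rest. In the KA model 0 of the 13 were called by edgeR, DESeq2 or limma-voom. There, 1 had an unadjusted p under 0.05 (9.91% of all genes). Slc1a2 and Slc1a3, the astrocytic carriers left out of the 33, had changes of -0.06 and -0.07 there. In KI they had 0.84 and 0.14, and none of these changes was called by edgeR. Of 12 genes of monoamine and acetylcholine metabolism and uptake, edgeR called 1 in the kindling model, Chat, lower in KI 3 Class V (-3.53 ± 1.05, adjusted p = 0.0450), with the high KI sham 4 given above. In that list 5 had an unadjusted p under 0.05 (35.4% of all genes), DESeq2 called 2 (22.1%) and limma-voom 6 (54.8%). Of 10 genes of serine and glycine metabolism and of 10 genes of the amino acid shortage response, 0 were called in either model by edgeR. The serine and glycine list had 3 genes with an unadjusted p under 0.05 in the kindling model (DESeq2 called 1 and limma-voom 7). The shortage response list had 4 (DESeq2 called 2 and limma-voom 5). The same shares of all genes, 35.4%, 22.1% and 54.8%, stand beside both lists. In the KA model all these counts were 0.

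Of 11 amino acid exchangers of the SLC7 and SLC3 families, Slc7a7, a cationic amino acid exchanger, was called lower by edgeR in the kindling model, where 5.19% of all genes were called lower. There, 4 of the 11 had an unadjusted p under 0.05 (35.4% of all genes), DESeq2 called 2 (22.1%) and limma-voom 7 (54.8%). In the KA model edgeR called 0 of the 11 (0.172% of all genes), with 4 at an unadjusted p under 0.05 (9.91%). DESeq2 called 1 there (1.90% of all genes) and limma-voom 2 (5.39%). Slc7a7 had 2.83, 2.46, 2.08 and 2.93 CPM in KI 3 Class V, against 3.46, 4.27, 8.18 and 9.60 CPM in KI sham (change -1.31 ± 0.36, adjusted p = 0.0382 by edgeR). Slc7a7 is known from macrophages, and the 8 markers of microglia, the macrophages of the brain, summed to 446 to 467 CPM in KI 3 Class V, against 631 to 1418 CPM in KI sham, and 4 of the 8 were called lower, against 5.19% of all genes. Their part in the result was not tested. Slc3a2, the heavy chain that takes SLC7 exchangers to the cell surface, had 229, 271 and 267 CPM in KA 3 Class V. KA sham had 161 to 197 CPM of Slc3a2, with no overlap, and 2.94% of all genes separated in this direction. Its change of 0.50 ± 0.11 in KA did not pass (adjusted p = 0.0659), and its change in KI was -0.19 ± 0.11 (adjusted p = 0.229). The difference between the changes, KA minus KI, was called by edgeR for Slc3a2 (0.68 ± 0.15, adjusted p = 0.0232) and for Slc7a7 (2.02 ± 0.49, adjusted p = 0.0317). These were 2 of the 11 exchangers, where 3.79% of all genes were called, 3.14% with a larger value in KA. In the KA model all 8 markers of microglia had a positive change (median 0.64, 0 called by edgeR). For KA minus KI, edgeR called 5 of the 8, all with a larger value in KA (median of the 8, 1.76). The part of these cells in the differences was not tested.

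Promoter windows, 250 bases before to 50 after the start of the gene, were given by RefSeq (assembly GRCr8) for 25 of the 33 carriers. They are shown for the called carriers that have one, Slc6a12 (chr4:156257268-156257567, plus strand), Slc17a7 (chr1:104785955-104786254, plus strand) and Slc18a3 (chr16:7722765-7723064, minus strand), since these carry the differences in the kindling model. For the fourth, Slc1a1, only the name is given. The sequences read 5′ to 3′, and capitals mark the E-box CAGCTG.
Slc6a12: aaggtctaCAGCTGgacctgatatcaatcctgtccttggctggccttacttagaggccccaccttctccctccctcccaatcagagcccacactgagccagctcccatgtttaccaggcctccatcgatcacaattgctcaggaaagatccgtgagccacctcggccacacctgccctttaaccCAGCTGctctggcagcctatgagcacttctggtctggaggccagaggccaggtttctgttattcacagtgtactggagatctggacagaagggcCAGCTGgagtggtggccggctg
Slc17a7: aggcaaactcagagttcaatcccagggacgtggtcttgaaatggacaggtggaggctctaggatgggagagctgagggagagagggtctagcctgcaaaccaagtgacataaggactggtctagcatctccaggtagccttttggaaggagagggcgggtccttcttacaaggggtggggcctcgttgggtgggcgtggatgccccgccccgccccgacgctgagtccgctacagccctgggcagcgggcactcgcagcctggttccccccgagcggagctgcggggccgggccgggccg
Slc18a3: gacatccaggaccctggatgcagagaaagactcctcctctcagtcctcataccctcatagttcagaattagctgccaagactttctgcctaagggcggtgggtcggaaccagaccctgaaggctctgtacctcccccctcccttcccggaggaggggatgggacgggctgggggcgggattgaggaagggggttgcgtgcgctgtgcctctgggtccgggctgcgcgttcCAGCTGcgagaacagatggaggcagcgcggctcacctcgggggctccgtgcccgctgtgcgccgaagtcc
The GC content was 57.0%, 64.7% and 64.3% in that order, against a median of 51.7% over 33469 promoters. CAGCTG occurred 3 times in the window of Slc6a12, 0 times in that of Slc17a7 and 1 time in that of Slc18a3. Searched on both strands, it was in 7 of the 25 carriers' windows (28%) and in 15.1% of all promoters. The cyclic AMP response element TGACGTCA was in 2 windows, Slc18a2 and Slc38a6 (8%, against 1.83% of all promoters). Its core TGACG, which every full element also holds, was in 10 (40%, against 21.2%). The AP-1 site TGANTCA was in 4 (16%, against 7.33%). The amino acid response element TGATGNAAN was in 2, Slc1a4 and Slc38a1 (8%, against 3.97%). The part of these motifs in the levels was not tested. The 3 called carriers shown held none of these last 4 motifs in these windows.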

How the data were processed

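Read counts per gene symbol were deposited by the authors as raw counts with no normalization. The tools named in the submitters' processing notes are HISAT2, featureCounts, FastQC, Trimmomatic and DESeq2, with the build rn6. Their versions, the gene annotation and the settings for strand and for reads with several matches are not stated in the labels or the notes. Per the labels' protocols, RNA came from flash-frozen hippocampi, libraries from the NEBNext Ultra II kit, and single-end reads of 110 bases from a NovaSeq instrument; the labels name polyadenylated RNA. Of the 33 carriers, 12 overlap another gene in the RefSeq list for GRCr8 (used for names, neighbours and promoter sequences), among them Slc18a3 with Chat, Slc1a1 with Spata6l, Slc6a9 with Ccdc24 and Slc17a9 with Gid8, so reads they share may have been split or dropped. All 33 matched that list, 32 by symbol and Slc6a20 by a synonym. Slc6a16, Slc38a10 and Slc38a11 were not analysed here.

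The sample titles gave each library its group and number, and 0 columns were left unmatched. Each of the 36 same-group pairs of libraries differed beyond counting noise (the ratio of chi-square to its degrees of freedom was 20.4 to 604), and each library was kept as a replicate. Nothing in the labels ties each library to an animal of its own, so the p-values measure the spread between these libraries, which may in part be technical.

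Tests used edgeR 4.0.16 in R 4.3.3: TMM factors, genes with 10 or more counts in 3 or more libraries (13383 genes), 4 group means over all 18 libraries in 1 fit (14 residual degrees of freedom) and the robust quasi-likelihood F test (two-sided), adjusted by Benjamini-Hochberg over the genes of a comparison, with a threshold of 0.05. The 6 comparisons were 3 Class V against sham in each model, KA change minus KI change, KA sham against KI sham, KA 3 Class V against KI 3 Class V, and any difference among the 4 groups. Standard errors were taken as the size of the log2 fold change over the root of its F. Levels are CPM (mean ± SD where a mean is given); a prior count of 2 was added for log2 CPM. Alternatives used DESeq2 1.42.0, limma 3.58.1 (voom with quality weights), other scalings and filters, a ribosomal protein covariate, each model alone, a replicate block and left-out libraries. The procedure was tested on simulated counts.

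The carriers and the gene lists were chosen with earlier results of these data known. Named in full were the carriers called in any comparison, the 3 with the smallest p in each model, and Slc1a1, Slc6a11, Slc6a9, Slc17a6, Slc17a7, Slc18a2, Slc38a1, Slc38a2 and Slc38a3 as textbook carriers; others are marked. The totals count 1 carrier and 1 other gene that are not reported here.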

Additional observations from a re-analysis of the deposited data

Results flagged for a closer look

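Of 99 sets of values (33 carriers in the groups of 4 or more libraries), 7 held a library far from the others by Dixon's test, where chance gives about 1 in 20. In KI 3 Class V, 4 of these were the same library, KI 3 Class V 2, which was the highest: 2.931 CPM of Slc6a5 against 1.07 to 1.324 in the other 3, 37 CPM of Slc6a20 against 22.19 to 23.77, 24.47 CPM of Slc17a6 against 15.49 to 15.69, and 2.079 CPM of Slc18a1 against 0.6618 to 0.7871. None of these 4 genes was called in the kindling model by edgeR with all 18 libraries. Slc6a20 was called there by limma-voom, and by edgeR without KI shams 3 and 4.

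In KI sham, Slc18a3 was highest in KI sham 4, at 6.811 CPM against 1.142 to 1.403 CPM in the other 3 shams. Slc6a11 was lowest in KI sham 1, at 17.89 CPM against 53.57 to 57.69 CPM, and Slc38a3 was lowest in KI sham 3, at 66.25 CPM against 92.59 to 95.04 CPM.

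The change of Slc6a12 differed between the models by the test of the difference itself: KA minus KI was 2.56 on the log2 scale (adjusted p = 0.0336 by edgeR), with 3 to 38 reads of this gene per library.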

How the results depend on the processing

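With another tool, scaling, filter or set of libraries, the number of called carriers moved as follows. For KI 3 Class V against KI sham (4 called), DESeq2 gave 11, limma-voom 18, the ribosomal protein score as a covariate 2, leaving out the 3 libraries rich in ribosomal RNA-like counts (KI 3 Class V 1, KI sham 2 and KA sham 4) 0, leaving out KI shams 3 and 4 gave 7, all higher, and leaving out the 2 libraries high in Ttr gave 9; single left-out libraries gave 0 to 10. RLE and upper quartile scaling, the filterByExpr filter, no filter and each model fitted alone gave 3 or 4, but not always the same carriers. Upper quartile scaling lost Slc1a1 and Slc17a7, and no filter lost Slc17a7. Each model fitted alone lost Slc1a1 and Slc18a3. It had no value for Slc6a12, which did not pass the count filter in the KI libraries alone. The share of all genes called moved too, to 22.1% with DESeq2, 54.8% with limma-voom and 0.852% with the covariate. It was 0.112% without the RNA-rich libraries, 28.1% without KI shams 3 and 4 and 29.5% without the Ttr-high libraries. Over single left-out libraries it ran from 0.0673% to 32.2%. For the KA change minus the KI change (1 called), DESeq2 gave 3, limma-voom 13 and the covariate 3. The shares of all genes were 8.35%, 35.5% and 7.65%. Leaving out the Ttr-high libraries gave 0 (2.59%), and single left-out libraries 0 to 4 (0.404% to 6.71%). Leaving out KI shams 3 and 4 also gave 1 (4.82%), Slc38a1 in place of Slc6a12. For KA 3 Class V against KI 3 Class V (1 called), DESeq2 gave 2, limma-voom 13 and the covariate 2. The shares of all genes were 7.14%, 38.3% and 6.90%. Leaving out the RNA-rich libraries gave 0 (0.404%), and leaving out KI shams 3 and 4 gave 2 (4.89%). Single libraries gave 0 to 2 (0.112% to 5.97%). For any difference among the 4 groups (0 called), DESeq2 gave 5, limma-voom 21 and the covariate 2. The shares of all genes were 14.8%, 57.1% and 2.26%. Leaving out KI shams 3 and 4 gave 3 (19.8%), and leaving out the Ttr-high libraries 1 (6.94%). Single libraries gave 0 to 2 (0.165% to 14.8%). For KA 3 Class V against KA sham (0 called), limma-voom gave 1 (5.39% of all genes) and every other setting run 0. For KA sham against KI sham (0 called), limma-voom gave 1 (3.00%) and so did leaving out KI shams 3 and 4 (4.76%). Every other setting run gave 0 there. Leaving out KA sham 2 and KI sham 1 together was chosen after seeing the data. It gave 6 in KI, 4 for the KA change minus the KI change, 2 for the 3 Class V groups and 3 for any difference. The shares of all genes were 13.9%, 9.77%, 7.70% and 7.80% in that order. The causes were not tested.

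Same-numbered libraries did not pair (7 pairs, correlations of their deviations from -0.165 to 0.00835, 0 over 0.1, and 0 of 7 best with their own number). With a replicate block, 0 carriers and 0 of all genes were called in KI, 0 carriers for the difference of the changes, and Slc17a6 in KA was 0.0013.

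Directions that turned were all of changes not called in either fit. In KI, Slc6a9 was -0.019 with upper quartile scaling, -0.25 with the covariate and -0.035 without KI shams 3 and 4; Slc17a6 was -0.56 and Slc18a2 -0.027 with the covariate; Slc17a6 was -0.035 without KA sham 2 and KI sham 1; and Slc1a5 was 0.13 without KI shams 3 and 4. In KA, Slc18a3 was -0.082 with limma-voom. Over single left-out libraries, Slc17a6 ran from -0.40 to 0.047 in KA and from -0.14 to 0.57 in KI, Slc6a9 from -0.0013 to 0.15 in KA and from -0.14 to 0.17 in KI, Slc38a1 in KA from -0.024 to 0.18, and Slc38a3 in KA from -0.16 to 0.0051. Slc6a12, with as few as 3 reads in a library, is the called carrier most limited by depth.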
